A study of Mus musculus with 24 samples.

Results

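Axon guidance genes encode the cues that steer growing axons, and migrating or contacting cells more widely, together with the receptors that read those cues. The genes described here are the rows of a mouse mammary count table whose symbols carry a family name of the semaphorins, plexins, neuropilins, slits, Robo receptors, netrins, UNC5 receptors, ephrins or Eph receptors. They number 70 of the 24007 genes in the table. By family, 66 are guidance ligands or receptors: 20 semaphorins, 11 plexins and neuropilins, 3 slits, 3 Robo receptors, 3 netrins, 2 netrin-G proteins, 4 UNC5 receptors, 8 ephrins and 12 Eph receptors. The other 4 (Unc50, Unc5cl and the antisense transcripts Plxna4os1 and Plxna4os2) share a name with these families and are no guidance cues. Counts below are over all 70, called the set, so Unc50 and Unc5cl are among the genes tested.

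The mammary epithelium was taken from female FVB/N mice of 10 to 12 weeks in estrus, either wild type (WT) or knockout for Id4 (KO). ID4 is a helix-loop-helix protein without a DNA-binding domain that dimerizes with E proteins and keeps them from DNA. Glands of 4 to 8 mice were pooled for a replicate and sorted by CD24, CD29 and CD61 into a basal population, luminal progenitor (LP) cells and mature luminal (ML) cells. Each combination of genotype and population had 4 replicates, 24 libraries in all. The knockout was described in other work, and the labels do not state which part of Id4 it lacks or in which cells.

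Semaphorins bind plexins, and most of the secreted class 3 semaphorins also need a neuropilin as co-receptor. Slits are secreted repellents that bind Robo receptors, netrins bind the receptors DCC and neogenin for attraction and UNC5 for repulsion, and ephrins are held on one cell and bind Eph receptor tyrosine kinases on its neighbour. In the mammary gland, slit and netrin signals are known for holding the outer basal (cap) layer and the inner luminal layer together in the growing ducts, and SLIT2 with ROBO1 for restraining growth of the basal cells.

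Library totals ran from 3098425 to 7246443 counts, and 3 counts, the smallest amount read here as a signal, equal 0.377 to 0.972 CPM (counts relative to the library total, on 1 TMM scaling of all 24 libraries). Id4 checked the labels: it stood at 13.1 to 86.1 CPM in WT basal libraries, at 0.939 to 11 in KO basal libraries and at 1.41 CPM or less in every luminal library. The sort was checked by marker genes. The 10 basal markers summed to between 7274 and 12847 CPM in WT basal libraries, and to 227 CPM at most in WT luminal libraries. Luminal progenitor markers summed to 5148 CPM in WT basal replicate 2, against 263 to 632 in the other WT basal libraries, where WT LP libraries held at least 5532. WT basal replicate 2 thus stood apart from its group. In KO, luminal progenitor markers summed to 1571 CPM in basal replicate 2, against 209 to 606 in the other KO basal libraries. They summed to 1847 CPM in KO ML replicate 2, against 222 to 568 in the other KO ML libraries. Mature luminal markers summed to 5319 CPM in KO ML replicate 2, against 8371 to 10030 in the others.

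Most of the set was detected, many genes at low levels. A mean of at least 1 CPM in some group was reached by 60 of the 70 genes, while 9 had no more than 30 counts over all 24 libraries. The expression filter of the test was passed in all 6 fits by 33 genes and in none by 15 (Efna3, Epha3, Epha5, Epha8, Ntn3, Plxna4os1, Plxna4os2, Plxnb3, Sema3a, Sema4f, Sema5b, Sema6b, Slit1, Unc5a and Unc5d). The strongest counts among these 15 were 58 in 1 library for Sema5b and 53 for Sema3a.

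**Figure D1:**
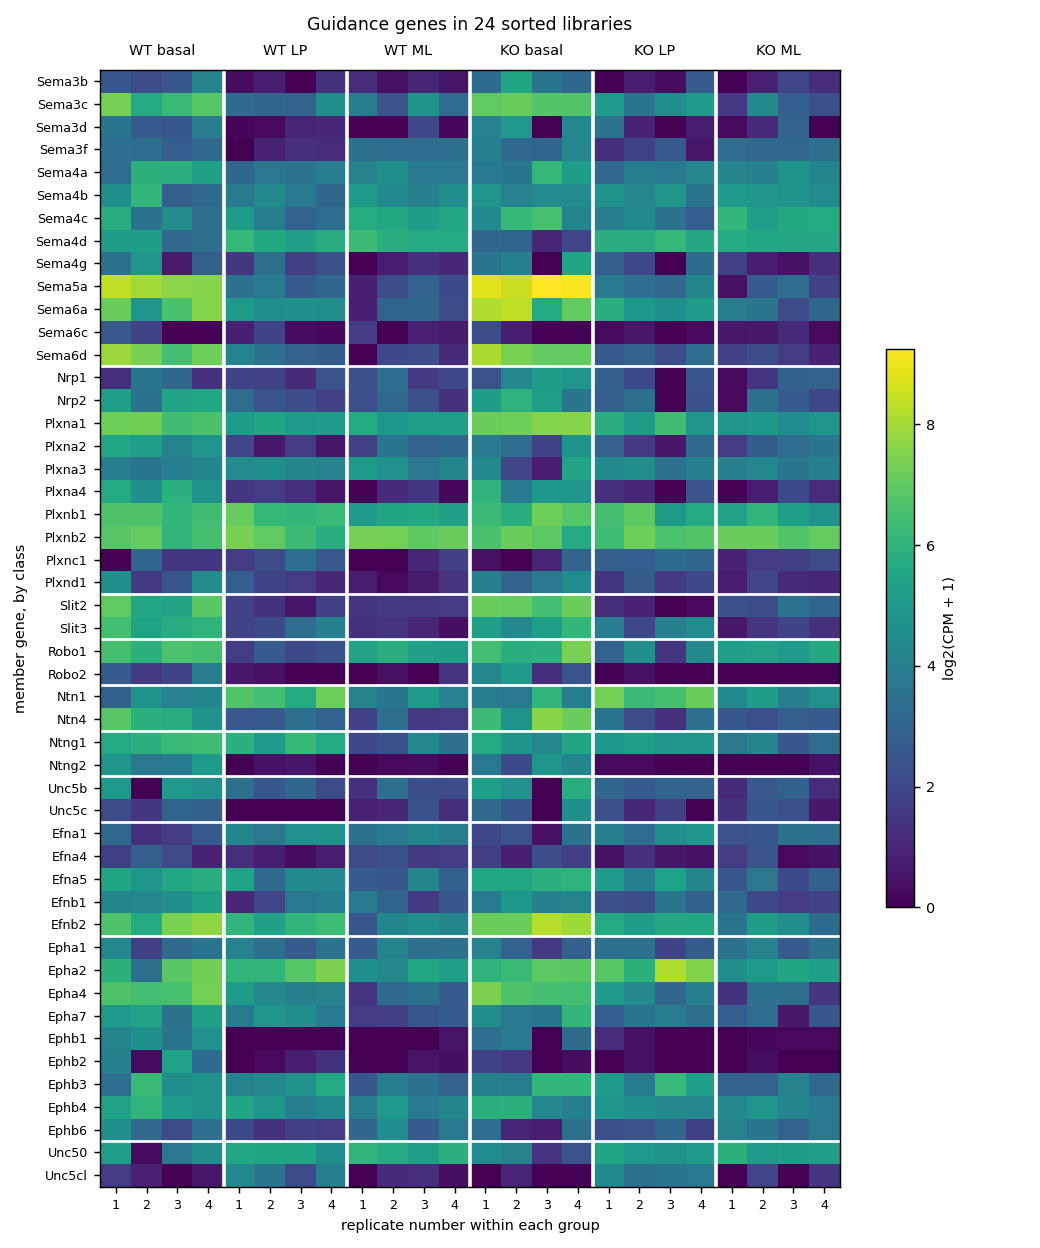
Level of the 49 genes tested in the WT fit, as log2(CPM + 1), with 1 row a gene ordered by class and 1 column a library; white lines separate classes and the 6 groups of 4 libraries. Bright rows in the basal columns of both genotypes include Sema5a, Sema6d and Slit2, and Ntn1 is brightest in the LP columns.

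The first comparison asks how the 3 populations of WT epithelium differ. More genes of the set were higher in basal cells than lower. Against LP, 23 genes were higher in basal cells and 3 lower among the 49 tested, where 15.8% of all genes tested passed in either direction, 9.12% higher and 6.68% lower. Against ML, 28 were higher and 2 lower, where 24.6% of all genes passed, 14% higher and 10.6% lower. The median log2 difference over the 49 genes was 1.78 against LP and 1.95 against ML, and over all genes tested it was -0.03 and 0.01. Ephb1, Ephb2, Ntng2, Plxna4, Robo2, Sema3b, Sema3d and Unc5c passed the filter among basal libraries of both genotypes, and in neither luminal population. They entered the 49 mainly through their basal counts, so the counts higher in basal cells and the medians partly reflect the filter. The shares of all genes come from the same filter. Ligands and receptors both took part: of 24 ligands tested, 12 were higher and 2 lower than in LP, and 15 higher and 2 lower than in ML, while of 23 receptors 11 and 13 were higher and none lower.

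Between LP and ML, 11 genes were higher in LP and 5 higher in ML, where 11.5% of all genes passed, 6.62% higher and 4.89% lower in LP. The basal libraries did not overlap the LP libraries for 25 of the 49 genes (19.5% of all genes), nor the ML libraries for 28 (27% of all genes), and LP did not overlap ML for 19 (23.9% of all genes). The contrasts with LP and with ML share the WT basal libraries. Genes higher in basal cells in both contrasts were the semaphorins Sema3b, Sema3c, Sema3d, Sema4a, Sema5a, Sema6a and Sema6d, the slits Slit2 and Slit3, Ntn4 and Ntng2, and the receptors Robo1, Robo2, Nrp2, Plxna1, Plxna2, Plxna4, Epha4, Ephb1 and Ephb2. Of these, Sema4a against ML was lost with a replicate block, with no filter and without any 1 library other than WT basal replicate 1. Robo2 was lost without WT basal replicate 4 or LP 2, 3 or 4 (against LP), and without basal 1, 3 or 4, LP 1, 2 or 3 or ML 1, 2 or 3 (against ML). Sema3b was lost without basal 4 or LP 1, 2 or 3 (against LP) and without basal 4 or ML 2 or 4 (against ML). Sema3d was lost without basal 1 or 4 or any LP library (against LP), and without basal 1 or 4, LP 2 or 3 or ML 1, 2 or 4 (against ML). Ephb2 was lost against LP without basal 3 or LP 1, 2 or 3. Without WT basal replicate 2, 30 genes differed between basal cells and LP and 31 between basal cells and ML, of 51 tested. Genes gained without it were Efnb2, Plxnd1, Sema4d and Unc5b against LP, and Epha2, Unc50 and Unc5b against ML. DESeq2 on all libraries gained Plxnd1 and Sema4d against LP, and Efnb1, Epha2, Ephb4 and Unc5b against ML. Below, a gene said to pass or not to pass is judged by edgeR on all WT libraries.

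**Figure D2:**
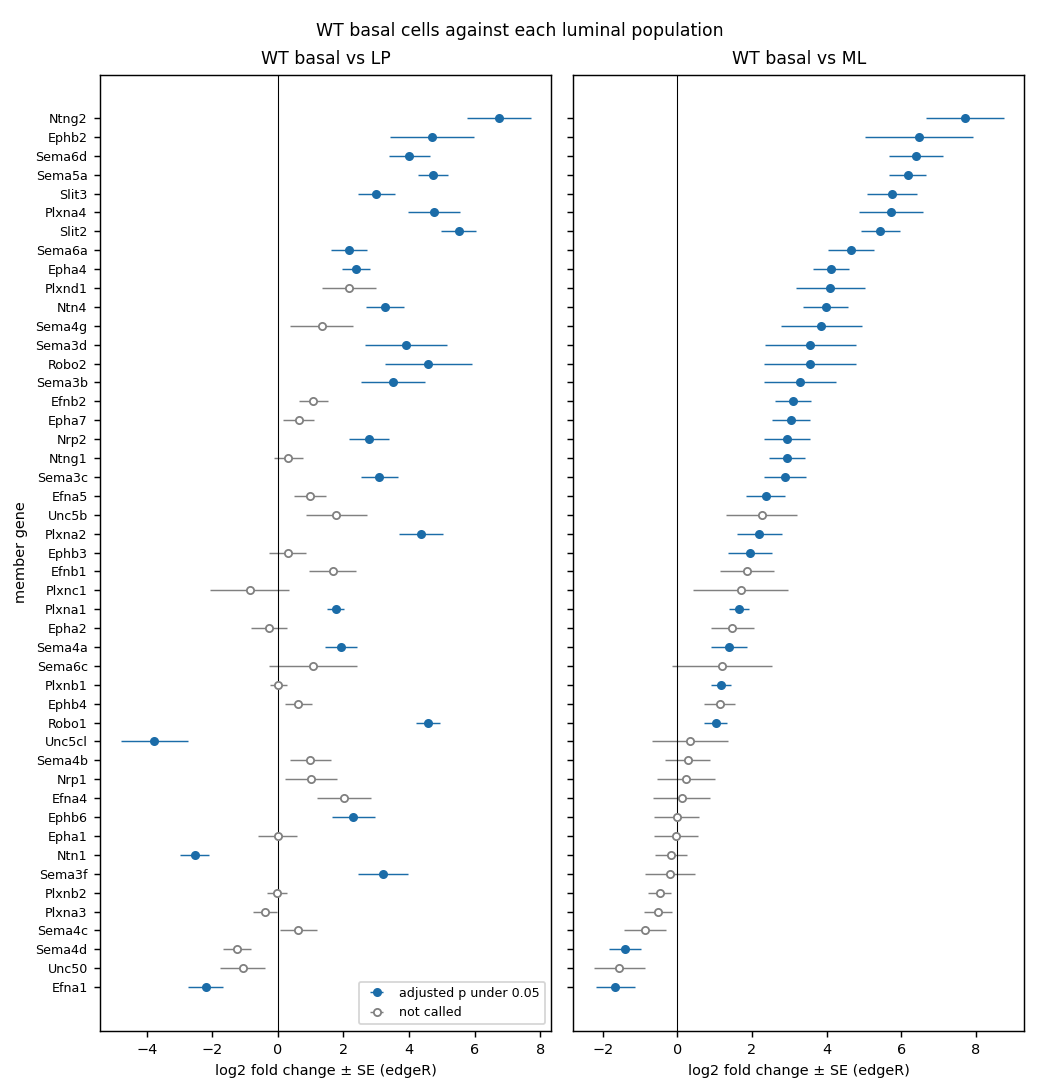
Log2 fold change of WT basal cells over LP (left) and ML (right) from edgeR, with bars of 1 SE, for 47 genes ordered by the contrast with ML; filled points passed an adjusted p of 0.05. Ephb1 and Unc5c, at 0 in all WT LP libraries, are not drawn. Most filled points lie right of 0, and Efna1 lies left of 0 in both panels.

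Slit2 and Slit3 were both higher in basal cells than in either luminal population. Slit2 (chromosome 5, 47983138 to 48307733, plus strand, mm10) stood at 127, 45.1, 41.5 and 116 CPM in WT basal replicates 1 to 4, at 0.481 to 2.52 CPM in LP and at 1.66 to 2.06 CPM in ML. The basal libraries were all far above the luminal ones, and the lowest of them still held 138 counts. The log2 difference was 5.51 ± 0.53 (SE) against LP (adjusted p = 3.63e-06) and 5.44 ± 0.52 against ML (adjusted p = 2.96e-06). Slit3, its close relative, stood at 86.4, 40.4, 53.6 and 64.3 CPM in WT basal cells, at 2.64, 3.18, 9.14 and 15.8 in LP and at 0.294 to 1.70 in ML. It thus fell in 2 steps, since LP also exceeded ML, by 2.73 ± 0.62 (adjusted p = 0.00801). Slit1 had 3 counts in all libraries together.

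Robo1, a receptor of the slits, followed another order. It lies on chromosome 16, 72308306 to 73046095, plus strand. WT basal libraries held 91.1, 59.2, 98.1 and 91.7 CPM, ML libraries 41.6, 54.2, 38.4 and 34.9, and LP libraries 2.01, 5.29, 3.13 and 3.95. The groups did not overlap: basal cells were highest, ML intermediate and LP lowest. ML exceeded LP with an LP minus ML difference of -3.55 ± 0.34 (adjusted p = 1.36e-05), and basal cells exceeded ML by 1.02 ± 0.30 (adjusted p = 0.0212). The latter call was lost without WT basal replicate 3 or ML replicate 1, 3 or 4. LP held some Slit3 with little Robo1, and ML held Robo1 with little of either slit. Robo2 had 1.96 to 13.7 CPM in WT basal cells and at most 1.62 in any WT luminal library, and Robo4, known from endothelium, did not pass the filter in the WT fit.

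The start regions of Slit2 and Robo1 are shown because the ligand and its receptor are both basal-high while only the receptor is shared with ML. Each runs from 250 bases before to 50 after a RefSeq start (GRCm38.p6, plus strand), Slit2 at chr5:47982905-47983204 and Robo1 at chr16:72662899-72663198, a start that lies within the annotated gene. Capitals mark the E-box CANNTG, the motif of the E proteins that ID4 binds, searched on both strands, of which CACCTG is 1 form.
Slit2: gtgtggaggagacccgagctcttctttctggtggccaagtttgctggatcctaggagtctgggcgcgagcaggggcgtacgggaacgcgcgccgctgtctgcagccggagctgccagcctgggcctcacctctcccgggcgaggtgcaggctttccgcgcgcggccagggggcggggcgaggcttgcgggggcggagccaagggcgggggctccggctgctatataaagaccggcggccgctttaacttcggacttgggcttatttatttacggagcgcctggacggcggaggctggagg
Robo1: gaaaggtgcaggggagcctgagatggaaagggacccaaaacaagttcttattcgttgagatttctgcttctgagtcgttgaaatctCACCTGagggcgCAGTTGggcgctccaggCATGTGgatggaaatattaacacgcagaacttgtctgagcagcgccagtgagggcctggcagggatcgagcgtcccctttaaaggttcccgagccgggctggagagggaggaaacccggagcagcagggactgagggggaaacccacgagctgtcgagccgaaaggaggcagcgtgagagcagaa
The Slit2 window held 0 E-boxes and the Robo1 window 3, of them 1 CACCTG. Of all 32851 windows of this length 72.3% held an E-box and of the 75 windows of the 59 genes of the 70 with a RefSeq promoter 49.3%. The latter were richer in G and C (median 64.3%) than all windows (median 52.7%). A motif match describes these letters only.

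Among semaphorins, Sema5a, a membrane-bound class 5 member, and Sema6d and Sema6a, transmembrane class 6 members that act as ligands and as receptors, were higher in basal cells. Sema5a (chromosome 15, 32244810 to 32696341, plus strand) stood at 328, 246, 199 and 187 CPM in WT basal cells, at 5.29 to 12.7 in LP and at 0.764 to 6.43 in ML. Its basal libraries lay far above every luminal one. The log2 difference was 4.74 ± 0.46 against LP (adjusted p = 4.08e-06) and 6.17 ± 0.50 against ML (adjusted p = 6.19e-07). Luminal levels were 3.76% and 1.44% of the basal mean in LP and ML. The 10 basal markers ranged from 0.341% (Cnn1) to 9.74% (Vim) in LP, and from 0.858% (Acta2) to 5.95% (Vim) in ML. The Sema5a window (GRCm38.p6, plus strand, chr15:32244563-32244862), shown as that of a semaphorin high in basal cells and low in both luminal populations, held 0 E-boxes.
Sema5a: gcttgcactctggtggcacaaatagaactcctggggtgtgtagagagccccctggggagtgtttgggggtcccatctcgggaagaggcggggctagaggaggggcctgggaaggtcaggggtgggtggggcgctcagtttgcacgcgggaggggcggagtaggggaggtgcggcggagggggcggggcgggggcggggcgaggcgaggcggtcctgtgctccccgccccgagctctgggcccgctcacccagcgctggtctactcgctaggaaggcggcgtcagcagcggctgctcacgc

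Sema6d stood at 231, 162, 89.7 and 147 CPM in WT basal cells, at 5.68 to 17.0 in LP and at 0 to 3.62 in ML. Basal cells exceeded ML by 6.40 ± 0.72 (adjusted p = 1.07e-05), and the 3 populations did not overlap. Sema6a stood at 140, 27.8, 95.7 and 187 CPM in basal cells, where replicate 2 fell within the LP range of 22.6 to 30.3, and LP was above ML by 2.47 ± 0.58 (adjusted p = 0.00976). Of the secreted class 3 semaphorins, Sema3c stood at 160, 49.2, 74.6 and 112 CPM in WT basal cells, 6.73 to 24.2 in LP and 4.43 to 26.7 in ML. Sema3b and Sema3d were higher in basal cells than in both luminal populations, subject to the losses given above, at 3.33 to 17.5 and 4.82 to 14.1 CPM in basal libraries.

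Not every semaphorin was basal. Sema3f, which signals through neuropilin-2, stood at 5.72 to 9.40 CPM in basal cells, at 8.84 to 10.0 in ML and at 0 to 1.44 in LP, and was low in LP alone (LP minus ML -3.41 ± 0.76, adjusted p = 0.00728). Sema4d, the ligand of plexin-B1, ran the other way, at 34.7, 34.7, 8.13 and 9.75 CPM in WT basal cells, 38.0 to 69.7 in LP and 49.2 to 80.1 in ML. Its basal minus ML difference was -1.41 ± 0.43 (adjusted p = 0.026), and the adjusted p rose to as much as 0.0751 without WT basal replicate 3 or 4 or ML replicate 1. Sema4g, at 0.602 to 27.0 CPM in basal cells and 0 to 1.41 in ML, was higher in basal cells than in ML with overlapping libraries, and Sema4b, Sema4c and Sema6c did not pass in any WT contrast. Sema3e, Sema3g and Sema7a stayed under the filter of the WT fit, at no more than 3.61 CPM in any WT library. Scaled by the deposited gene length, the highest semaphorin was Sema6d in basal cells (32.2 CPM per kb), Sema4d in LP (11.9) and Sema4c in ML (17.3).

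Among the receptors of semaphorins, plexins A1, A2 and A4, which pair with neuropilins or bind class 6 semaphorins, were higher in basal cells than in both luminal populations. Plxna4 stood at 48.8, 24.1, 59.6 and 25.3 CPM in WT basal cells, at 0.474 to 2.12 in LP and at 0 to 1.81 in ML, a difference from LP of 4.76 ± 0.80 (adjusted p = 0.000625). Plxna2 stood at 45.0, 36.1, 17.2 and 28.1 CPM in basal cells and at 0.474 to 2.89 in LP. In ML it stood at 2.55 to 11.3 CPM, and its LP minus ML difference of -2.18 ± 0.63 (adjusted p = 0.033) came with overlapping libraries and was lost (adjusted p up to 0.111) on leaving out any of 6 libraries, WT LP 2, 3 or 4 or WT ML 2, 3 or 4. Nrp2 had 9.99 to 45.6 CPM in basal cells and 1.47 to 8.93 in luminal libraries.

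Plexin-B2 was expressed in all populations. Plxnb2 stood at 66.8 to 134 CPM in basal cells, 55.1 to 163 in LP and 123 to 159 in ML, did not pass in any WT contrast, and had the highest level per length of all plexins in each WT population (17.9, 18.6 and 25.3 CPM per kb). Plxnb1, the receptor of SEMA4D, was at 69.2 to 101 CPM in basal cells and 69.0 to 138 in LP, and lower in ML at 33.2 to 48.2. Plxnd1, the receptor of SEMA3E, was higher in basal cells than in ML (23.4, 1.96, 4.51 and 23.0 CPM against 0.17 to 1.62). Plxna3, Plxnc1 and Nrp1 did not pass in any WT contrast.

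Netrin genes were expressed in a complementary way. Ntn1, the classical secreted netrin (chromosome 11, 68209364 to 68400823, minus strand), was an LP gene: 105, 89.1, 49.0 and 146 CPM in LP, 6.37, 25.7, 16.3 and 18 in basal cells and 16.7, 11.4, 31.7 and 16 in ML. Every LP library lay above every library of the other populations. The basal minus LP difference was -2.54 ± 0.45 (adjusted p = 0.000981) and the LP minus ML difference 2.37 ± 0.44 (adjusted p = 0.00218), while basal cells and ML overlapped. Ntn4, a netrin that binds laminin in basement membranes, was basal, at 114, 56.8, 53.6 and 26.6 CPM against 5.03 to 9.62 in LP and 2.01 to 9.55 in ML. Its difference from LP was 3.28 ± 0.58 (adjusted p = 0.000929).

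Of the UNC5 receptors, Unc5b stood at 30.8, 0, 31.0 and 24.5 CPM in WT basal cells and did not pass. Unc5c had counts in all 4 WT basal libraries (1.76 to 6.92 CPM) and in all WT ML libraries (0.892 to 4.02 CPM), and none in the 4 LP libraries. Against a floor of 3 counts over the LP group it was at least 36.8-fold higher in basal cells and at least 14.6-fold higher in ML. Unc5a and Unc5d had 7 and 5 counts over all 24 libraries.

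The netrin-G genes, whose proteins are anchored in the membrane and bind no classical netrin receptor, also differed from each other. Ntng2 stood at 27.5, 11.6, 13.2 and 32.7 CPM in WT basal cells and had 0 to 2 counts in any luminal library of the WT. Its difference was 6.74 ± 0.98 from LP (adjusted p = 0.000164) and 7.71 ± 1.04 from ML (adjusted p = 5.86e-05). Ntng1 was high in both basal cells (49.6 to 81.3 CPM) and LP (33.4 to 71.9) and low in ML (3.06 to 18.9). LP exceeded ML by 2.62 ± 0.47 (adjusted p = 0.00171).

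Ephrins and their receptors held both an exception to the basal pattern and some of the clearest basal genes. Efna1 (chromosome 3, 89271733 to 89281142, minus strand), an ephrin tethered by a lipid anchor, was the only gene of the families called lower in basal cells than in both luminal populations. Sema4d basal libraries also lay below every luminal one. Its difference from LP missed the threshold, and passed in some alternatives, DESeq2, no filter and the replicate block among them. Efna1 stood at 7.96, 1.37, 2.11 and 5.46 CPM in WT basal cells, 17.9, 12.0, 24.8 and 25.1 in LP and 10.2, 13.5, 17.9 and 13.7 in ML. No basal library reached a luminal one. The difference was -2.20 ± 0.54 from LP (adjusted p = 0.0099) and -1.66 ± 0.53 from ML (adjusted p = 0.0308), the latter lost, at up to 0.0749, without WT basal replicate 3 or ML replicate 2, 3 or 4. Its window (GRCm38.p6, minus strand, chr3:89280902-89281201, 1 of its 2 RefSeq starts), shown because the gene runs against the basal pattern, held 0 E-boxes as well.
Efna1: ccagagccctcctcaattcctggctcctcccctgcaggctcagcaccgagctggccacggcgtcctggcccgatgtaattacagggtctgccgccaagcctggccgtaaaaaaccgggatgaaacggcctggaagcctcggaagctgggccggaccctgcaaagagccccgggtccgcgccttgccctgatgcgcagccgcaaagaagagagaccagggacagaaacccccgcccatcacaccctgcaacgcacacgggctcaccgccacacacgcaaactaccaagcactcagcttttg

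Efnb2, a transmembrane ephrin, had the highest length-scaled level of the ephrins in basal cells (30.6 CPM per kb). It stood at 103, 50.8, 166 and 210 CPM in basal cells, 37.9 to 82.1 in LP and 4.71 to 22.7 in ML. Basal cells and LP overlapped, and their difference passed only without WT basal replicate 2. Both populations exceeded ML (3.10 ± 0.48 and 2.02 ± 0.46). Efna5 was likewise higher in basal cells than in ML. Efna2 and Efnb3 stayed under the filter of the WT fit, and Efna4 and Efnb1 passed in no WT contrast.

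Among Eph receptors, Epha4, which binds ephrins of both classes, stood at 101, 89.4, 92.1 and 154 CPM in WT basal cells, 15.1 to 32.6 in LP and 1.66 to 10.2 in ML. The 3 populations stood apart, basal cells above LP by 2.39 ± 0.43 (adjusted p = 0.00122) and LP above ML by 1.73 ± 0.44 (adjusted p = 0.0164), the latter lost without WT LP replicate 1 or ML replicate 4. Ephb1 was close to a basal on-or-off gene: 16.9, 24.1, 10.8 and 24.5 CPM in basal cells, 0 counts in all 4 LP libraries and 3 counts in 1 of 4 ML libraries. It was at least 153-fold higher in basal cells than a floor of 3 counts over the LP group, and higher than ML by 7.15 ± 1.02 (adjusted p = 0.000231). Ephb2 varied within the basal group, at 15.8, 0.196, 40.3 and 8.60 CPM, with replicate 2 inside the luminal range of 0 to 1.58.

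Other Eph receptors followed different orders. Epha2, which binds EFNA1, had the highest level per length of the Eph receptors in each population. It stood at 60.8, 9.6, 117 and 152 CPM in basal cells, 64.8 to 170 in LP and 19.6 to 44.6 in ML, and passed in no WT contrast. Without WT basal replicate 2, or with DESeq2, both basal cells and LP differed from ML in Epha2. Epha7 was at 9.93 to 38.8 CPM in basal cells and 13.3 to 27.5 in LP and lower in ML than in both, at 2.04 to 5.44 (basal minus ML 3.05 ± 0.51, adjusted p = 0.000417; LP minus ML 2.41 ± 0.50, adjusted p = 0.00476). Ephb6, which lacks kinase activity, stood at 3.31 to 24 CPM in basal cells, 1.59 to 3.27 in LP and 5.22 to 21.7 in ML. Basal cells exceeded LP by 2.30 ± 0.66 (adjusted p = 0.0252), a call lost without WT basal replicate 1 or LP replicate 2, 3 or 4. The LP minus ML difference of -2.32 ± 0.66 (adjusted p = 0.0289) was lost, at up to 0.127, on leaving out any of WT LP 1 to 4 or WT ML 2 or 4. Ephb3 was higher in basal cells (9.40 to 76.4 CPM) than in ML (4.71 to 14.0), with overlapping libraries. Its highest value was in WT basal replicate 2, the library that stood apart, and the call was lost without that library or without ML replicate 1 or 4. Epha1 and Ephb4 passed in no WT contrast.

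Of the genes that share only a name, Unc5cl, a death domain protein of NF-kappaB signalling, was an LP gene at 19.1, 11.5, 3.37 and 15.0 CPM, with 0 to 2.03 in basal cells and 0 to 1.41 in ML. Its basal minus LP difference of -3.77 ± 1.03 (adjusted p = 0.0196) was lost without WT basal replicate 4 or LP replicate 1, and its LP minus ML difference of 4.10 ± 1.05 (adjusted p = 0.0169) without LP replicate 1 or ML replicate 4. Unc50 passed in no WT contrast.

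**Figure D3:**
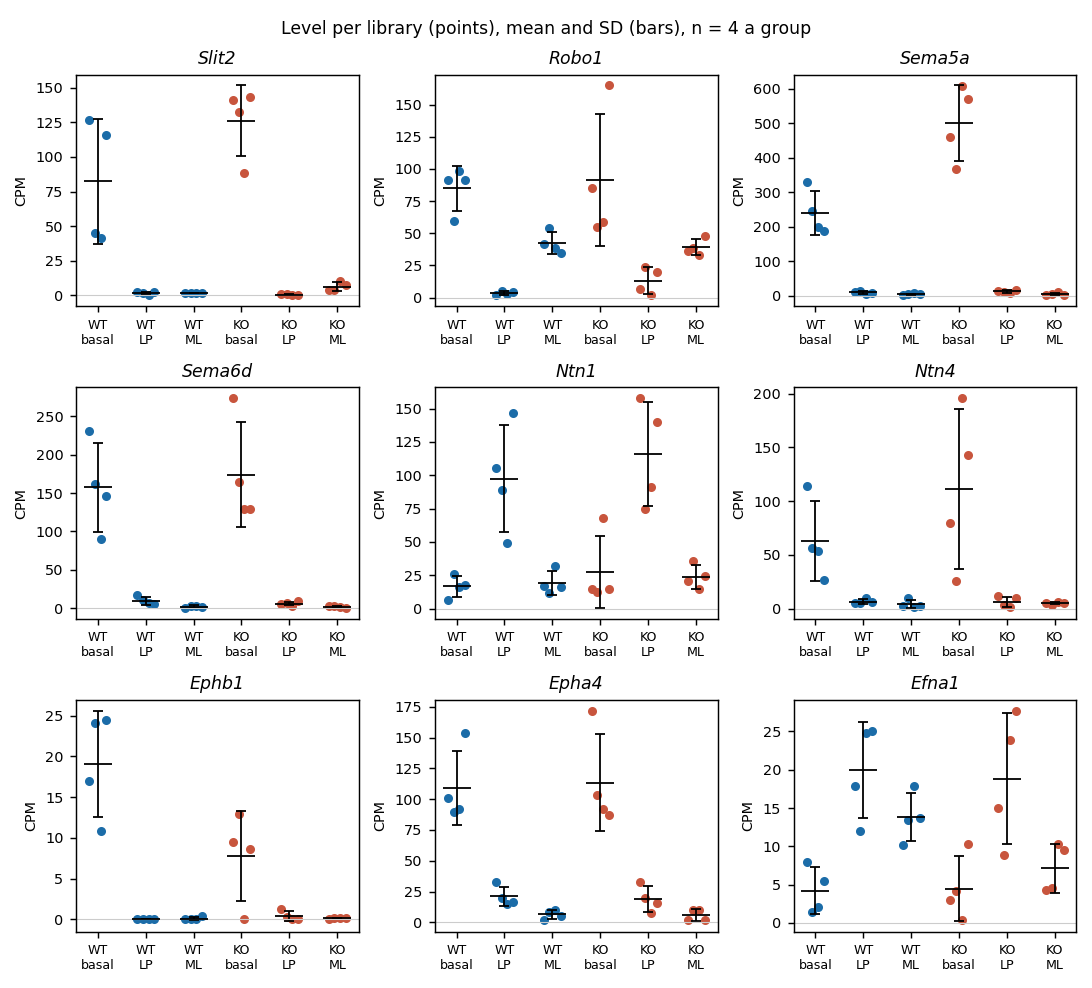
Level in CPM of 9 genes in each library (points) by population and genotype, with bars at the mean ± SD of 4 replicates; blue is WT and red is KO. Slit2, Sema5a, Sema6d, Ntn4, Ephb1 and Epha4 are highest in basal cells, Ntn1 in LP, Robo1 in basal cells and ML, and Efna1 in luminal cells.

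Exons of 10 of the 70 genes overlap another gene of the table, among them Ephb1, Ntng2, Plxna1, Plxnb1 and Sema4c, and the sources do not say whether counting used strand, so reads shared with a neighbour cannot be told apart there. Level differences in bulk RNA also do not separate fewer cells from less RNA per cell.

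The same contrasts among KO populations show how much of the layout was found without Id4. Basal cells exceeded LP for 14 genes and fell below it for 3, of 47 tested, where 14.8% of all genes passed, 8.12% higher and 6.69% lower. They exceeded ML for 25 genes and fell below it for 2, where 19.4% of all genes passed, 11.9% higher and 7.51% lower. LP and ML differed for 8 genes, 6 higher and 2 lower in LP, where 5.67% of all genes passed, 4.08% higher and 1.59% lower. Of the WT calls, 23 of 26 (basal against LP), 27 of 30 (basal against ML) and 16 of 16 (LP against ML) could be tested in KO, and each had the WT sign. They passed in KO for 14 of the 26 (53.8%, against 55% of all genes called in WT), 22 of the 30 (73.3%, against 54%) and 3 of the 16 (18.8%, against 39.5%). A gene missing the threshold in KO is not shown to differ from WT by that.

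In both KO contrasts of basal cells, which share the KO basal libraries, the genes higher in basal cells were Slit2, Sema5a, Sema6a, Sema6d, Sema3c, Ntn4, Ntng2, Plxna1, Plxna4, Epha4 and Efnb2. Slit2 in KO stood at 141, 133, 88.5 and 143 CPM in basal cells, at 0 to 1.32 in LP and at 3.68 to 10.5 in ML. Its KO basal minus LP difference was 7.71 ± 0.68 (adjusted p = 1.11e-06). Ntn1 in KO was again highest in LP, at 158, 75.0, 91.4 and 140 CPM, against 12.0 to 67.7 in basal cells and 14.4 to 35.6 in ML. Ephb1, Ephb2 and Sema3d had 0 counts in KO basal replicate 3, and Robo2 was spread from 1.30 to 32.7 CPM in KO basal cells. Without KO basal replicate 3, 21 genes differed between KO basal cells and LP and 26 between KO basal cells and ML, of 50 tested.

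Loss of Id4 itself was compared within each population. No gene of the set passed edgeR's test at an adjusted p of 0.05 in basal cells (0 of 50 tested), LP (0 of 37) or ML (0 of 37), where 0%, 0% and 0.00851% of all genes passed. DESeq2 called 0 of them in each population too. Id4 itself did not pass edgeR's test in basal cells, where its mean was 42.1 CPM in WT and 5.84 CPM in KO. A gene that did not pass is therefore not shown to be unchanged. At an unadjusted p under 0.05, edgeR gave 6 of 50 in basal cells (3.39% of all genes), 4 of 37 in LP (3.75%) and 3 of 37 in ML (3.87%). Libraries of the 2 genotypes did not overlap for 4 of 50 genes in basal cells (2.66% of all genes), 0 of 37 in LP (2.69%) and 2 of 37 in ML (2.66%). The median log2 difference over the genes of the set tested was 0.16 in basal cells, 0.05 in LP and 0.03 in ML, and over all genes it was 0.01, 0.00294 and 0.00618.

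The smallest p in basal cells belonged to Sema5a. KO basal libraries held 460, 366, 608 and 570 CPM and WT basal libraries 328, 246, 199 and 187, so that every KO library lay above every WT one. The difference was 1.09 ± 0.29 and its adjusted p 0.998, with adjusted p between 0.117 and 1 over the alternatives. From replicates 1 and 2 alone it was 0.51, and from 3 and 4 alone 1.68. In LP and ML, KO and WT libraries of Sema5a overlapped. Sema3e, the ligand of plexin-D1, was at 3.54, 3.76, 8.10 and 21.1 CPM in KO basal cells and at 0 to 2.15 in WT basal cells (3.11 ± 1.31, adjusted p = 0.998), with fewer than 30 counts in 7 of these 8 libraries.

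Sema4d had the largest negative value among genes whose basal libraries did not overlap. KO basal cells held 7.72, 6.95, 0.972 and 2.82 CPM against 34.7, 34.7, 8.13 and 9.75 in WT, a difference of -2.25 ± 0.89 (adjusted p = 0.998), and -2.26 and -2.16 within replicates 1 and 2 and within 3 and 4. Over the alternatives the adjusted p ran from 0.0651 to 1. In LP and ML the genotypes overlapped, and no KO library there was under 44.4 CPM. Sema4d was higher in WT ML than in basal cells and is also known from lymphocytes, so markers of luminal and immune cells are given. The 10 mature luminal markers summed to 321, 628, 523 and 277 CPM in WT basal replicates 1 to 4 and to 231, 439, 453 and 266 CPM in KO. The 10 luminal progenitor markers summed to 263, 5148, 632 and 462 CPM in WT and to 350, 1571, 209 and 606 CPM in KO. The 10 immune markers summed to 33.0, 140, 28.3 and 42.0 CPM in WT and to 16.6, 40.4, 31.1 and 9.62 in KO. Among them, the leukocyte gene Ptprc was at 0 in all KO basal libraries and at most 3.72 CPM in WT. Cd3e and Lyz2 stood at 45.1 and 66.8 CPM in WT basal replicate 2, and at no more than 0.161 and 26.3 CPM in KO basal libraries. In the same WT basal replicate 2, the immune markers Cd74, Itgam and Adgre1 were at 0 and Cd79a at 0.196 CPM. WT basal replicate 1, with Sema4d also at 34.7 CPM, held Cd3e at 0, Lyz2 at 10.8 and Cd74 at 19.5 CPM. The part of luminal or immune cells in the difference was not tested.

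Of the remaining basal values under an unadjusted p of 0.05, Nrp1 stood at 4.18, 18.6, 35.0 and 29.1 CPM in KO against 1.45, 11, 7.22 and 1.49 in WT, and the groups overlapped. Nrp1 is also expressed by endothelium, and the 12 endothelial markers summed to 71.2, 86.8, 258 and 103 CPM in KO basal cells and to 43.1, 57.0, 132 and 67.4 in WT. Of the 258 CPM in KO basal replicate 3, 134 came from Cdh5 alone. In KO basal replicate 4, Cdh5 and Pecam1 stood at 1.41 and 3.29 CPM, and Flt1 and Kdr at 31.2 and 23.7. The part of endothelial cells was not tested. Robo4, an endothelial Robo, reached 45.1 CPM in KO basal replicate 4 and at most 8.13 in the other basal libraries. Ephb2 stood at 0 to 2.73 CPM in KO and 0.196 to 40.3 in WT, and Ntng1 at 19.1 to 49.5 in KO and 49.6 to 81.3 in WT (-0.91 ± 0.42, adjusted p = 0.998).

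In LP, Robo1 had the largest positive value, at 6.58, 24.1, 1.65 and 20.2 CPM in KO against 2.01, 5.29, 3.13 and 3.95 in WT (1.87 ± 0.68, adjusted p = 0.999). KO replicate 3 lay below all WT libraries, and the genotypes overlapped. Sema3c, Ntng1 and Epha7 had differences of 1.04 ± 0.47, -0.80 ± 0.27 and -0.90 ± 0.39 (adjusted p = 0.999 each). In ML, Slit2 stood at 3.73, 3.68, 10.5 and 7.17 CPM in KO against 1.66, 1.88, 2.01 and 2.06 in WT, with no overlap (1.73 ± 0.50, adjusted p = 0.998), in libraries of 22 to 56 counts in KO and 10 to 14 in WT. Plxna1 stood at 21.4 to 29.2 CPM in KO ML and at 29.3 to 51.1 in WT ML (-0.53 ± 0.23, adjusted p = 0.998), and Efna1 stood at 4.24 to 10.3 CPM against 10.2 to 17.9 (-0.94 ± 0.37, adjusted p = 0.998).

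**Figure D4:**
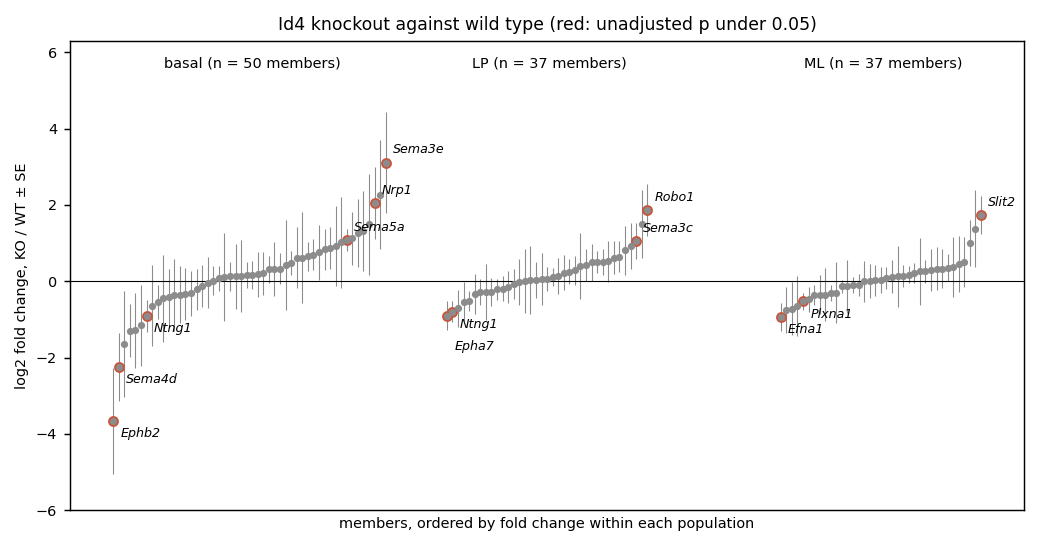
Log2 fold change of KO over WT from edgeR, with bars of 1 SE, for the genes of the set tested in basal cells (50), LP (37) and ML (37), ordered by size within each population. Genes in red, which are named, had an unadjusted p under 0.05, and none passed after adjustment.

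Whether the KO difference itself differs between populations was tested over all 24 libraries, and none of the 55 genes of the set tested passed for basal against LP, basal against ML or LP against ML (0% of all genes in each). An unadjusted p under 0.05 was reached by 6, 5 and 8 of 55 (6.96%, 6.89% and 1.32% of all genes), and DESeq2 called 0 in each. Sema4d gave the smallest p within the set for basal against LP (-2.30 ± 0.64, adjusted p = 0.484) and for basal against ML (-1.87 ± 0.63, adjusted p = 0.591). Slit2 gave it for LP against ML (-3.25 ± 0.81, adjusted p = 1), having stood in KO at 0 to 1.32 CPM in LP and at 3.68 to 10.5 in ML. Sema3g came next there (-8.25 ± 2.15), at 1.31 to 3.68 CPM in KO ML and at most 0.147 in WT ML. Its KO ML libraries held 7 to 27 counts, and it was under the filter for KO against WT in ML. Ephb1 came next for basal against LP and Robo2 for basal against ML (adjusted p = 0.517 and 0.591), each with a group at 0 in all libraries.

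Partners of the guidance genes were followed through 2 lists. Of 23 co-receptors and further ligands in the table, 19 were tested in WT. Basal cells were higher for 7 and lower for 1 than LP, where 9.12% of all genes were higher and 6.68% lower, and higher for 5 and lower for 2 than ML, where 14% were higher and 10.6% lower. Neogenin (Neo1), the netrin receptor, was higher in basal cells than in LP by 1.13 and than in ML by 1.14 (adjusted p = 0.00398 and 0.00251). Itga1, an integrin subunit, averaged 22.1 CPM in basal cells and 0.312 in LP, while Met, a co-receptor of plexin-B1, was higher in LP (226 CPM against 61.6 in basal cells). Adam10, the protease that sheds ephrins, was at 427 CPM in ML against 76.8 in basal cells and 57.1 in LP.

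Of the cytoplasmic effectors of the receptors, 50 were tested. Basal cells were higher for 8 and lower for 4 than LP, and higher for 13 and lower for 7 than ML, against the same shares of all genes (15.8% called against LP and 24.6% against ML). Dpysl3, a collapsin response mediator downstream of class 3 semaphorins, was at 232 CPM in basal cells and 5.10 and 4.19 in LP and ML, and Mical2, an actin-oxidizing enzyme of a plexin-linked family, at 229, 8.42 and 36.9. Srgap3, a GTPase-activating partner of Robo receptors, was highest in LP (192 CPM, against 88.8 in basal cells and 20.8 in ML), and Nck2, an adaptor, in ML (206 CPM, against 54.8 and 54.7). In the comparison of KO with WT, 0 genes of either list passed in any population.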

How the data were processed

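The authors deposited expected counts for each gene, without normalization, per the file headers. RSEM, STAR, cutadapt and mm10 are named in the submitters' processing notes, which give no settings. From 0.5 to 2 ng of RNA was amplified by NuGEN Ovation chemistry, per the labels' protocols, with no molecular identifiers, so counts carry amplification noise and limits from counts cover counting error only. Expected counts were rounded to whole numbers. The 25 rows without a symbol stayed in all fits.

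Tests used R 4.3.3 and edgeR 4.0.16 (quasi-likelihood F-test, two-sided, TMM, default filter, robust, Benjamini-Hochberg at 0.05 over all genes tested). The 12 WT or 12 KO libraries gave the population contrasts, the 8 libraries of a population KO against WT, and all 24 the differences between populations. Errors are SE, from the fold change and the F statistic. DESeq2 1.42.0, limma 3.58.1 under edgeR, other scaling, no filter, a replicate block and leaving out each library were the alternatives. Scripts were tested on simulated data. The genes, lists and rules were chosen with earlier results of these data known. The rule for naming took called WT genes with the 5 largest fold changes in each direction and a mean of at least 5 CPM. It also took the 3 smallest p in each direction (KO against WT), the 2 smallest p (differences between populations) and class leaders. Library values, errors and tests were not printed for every one of these genes. Members outside that rule were described by level, and Epha4, Ntn4, Sema3c and Robo1 among others with tests, chosen after their values were seen.

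Replicate numbers follow the titles, with which the tags of KO ML disagree. Deviations of same-numbered KO and WT libraries correlated at 0.114 to 0.344 in LP and 0.115 to 0.324 in ML, every pair over 0.1, and at 0.0549 to 0.135 in basal cells. The same-numbered library gave the highest correlation for 4 of 4 libraries in basal cells, 3 in LP and 2 in ML. Between WT populations, same-numbered libraries correlated at 0.0622 to 0.196 (basal and LP), 0.0553 to 0.174 (basal and ML) and 0.0838 to 0.294 (LP and ML). The same number was highest there for 3, 4 and 4 of 4 libraries. Between KO populations the values were 0.0236 to 0.17, -0.00162 to 0.162 and 0.0405 to 0.295, with 2, 2 and 3 of 4. All main tests took the group alone, without pairing, and the replicate number was a block in 1 alternative only. Gene lengths in CPM per kb are the deposited ones. Some lie far below the length of all annotated exons, as for Slit2 (1212 against 25433 bases), and slits were not ranked by length. By exon length, Plxnb2 and Plxna1 were nearly equal in WT basal cells (13.16 and 13.14 CPM per kb). Positions are from GENCODE vM21 (mm10), where 69 of 70 genes matched, and promoters from RefSeq (GRCm38.p6), where 59 matched.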

Additional observations from a re-analysis of the deposited data

Results flagged for a closer look

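The check covered only the genes taken by the rule for naming. Among their 130 sets of 4 libraries with a mean of at least 5 CPM, 5 held 1 library far from the other 3. Chance gives about 1 such set in 20. Ntn1 was at 67.7 CPM in KO basal replicate 3 and at 12.0 to 14.8 in the other KO basal libraries. Sema3c was at 24.2 CPM in WT LP replicate 4 against 6.73 to 8.43 in the others. Sema3e was at 19.4 CPM in KO LP replicate 3 against 1.02 to 2.63. Unc50 was at 23.1 CPM in WT LP replicate 4 against 41.8 to 45.0, and at 60.5 CPM in KO ML replicate 1 against 32.2 to 36.8.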

How the results depend on the processing

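With DESeq2, 26 genes differed between KO basal cells and LP in place of 17, and 14 between KO LP and ML in place of 8. No other setting on all libraries moved a count of called genes by more than 1.5 times. Leaving out 1 library at a time gave 21 to 30 genes for WT basal cells against LP, 25 to 31 for basal cells against ML and 10 to 18 for LP against ML, the 10 without WT ML replicate 4. In KO the ranges were 17 to 21, 20 to 29 and 3 to 11. The last, KO LP against ML, fell to 4 without KO LP replicate 1, to 5 without LP replicate 3 or LP replicate 4, to 4 without ML replicate 1 or ML replicate 3, and to 3 without ML replicate 4. Fewer libraries were fitted there, and no other cause was tested. KO against WT gave 0 genes in every population under every setting run, and so did the differences between populations. With the replicate number as a block the counts were 27, 30 and 18 in WT and 18, 25 and 10 in KO, and 0 for KO against WT, so the pairing changed no call of KO against WT. Over the named values, 775 of the alternatives kept the direction and side of the threshold, 23 kept the direction and missed the threshold, and 0 reversed. At these depths a gene under about 1 CPM rests on few counts.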
